A study of Mus musculus with 38 samples.

Results

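The first hour of retinoic acid in Neuro2A, a line of mouse neuroblastoma cells that grows neurites when differentiated, was examined on 12 of the 38 arrays of a time course: the 5 arrays taken after 1 h of retinoic acid and the 7 control arrays taken at 0 h. They were chosen by their titles. For the 1 h arrays, the cells spent 48 h in medium holding 10% serum and were then given fresh medium with 2% serum and 20 uM all-trans-retinoic acid for 1 h. The control cells were harvested at the end of the same 48 h in 10% serum, with no change of medium. The labels name neither a vehicle nor a medium-change control, so retinoic acid, the lower serum and the fresh medium cannot be told apart in this comparison. Each replicate pooled 4 to 6 plates of 1 cell line. Nothing in the labels says that replicates were separate experiments, so p-values measure only the spread between these samples.

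Each array held 576 oligonucleotide probes, most of them for mouse KIAA genes, a collection of long cDNAs rich in brain transcripts, and 473 probes carried a gene name. The measure was Cy5 fluorescence of labelled poly(A)+ RNA, given below as quantile-normalised log2 intensity. A difference of 1 on that scale is a doubling of normalised intensity, and log2 changes are RA 1 h minus 0 h with the standard error (SE) of the fit. The lowest deposited value, 0.540, was shared by many probes and is called the floor. For a probe at the floor only an upper bound is known. The number of arrays limited the precision, with a median SE of 0.20 on the log2 scale, a factor of 1.15.

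All-trans-retinoic acid is the ligand of the retinoic acid receptors, nuclear receptors that bind DNA as partners of the retinoid X receptors, typically at direct repeats of a short half-site. Genes with such elements can respond without new protein synthesis, which is why an early time is of interest. Ubiquitin ligases attach ubiquitin to proteins, often through adaptors that choose the substrate, and deubiquitinases remove it. Microtubules, their motors and their tip and lattice proteins carry cargo in neurites and shape them.

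The upstream 250 bases of 3 array genes are shown here because the first 2 are the genes whose 1 h arrays all lay below all controls, and the third is the gene on the array whose window held a direct repeat of a retinoid half-site. They are from RefSeq and read 5′ to 3′ on the gene's strand up to the base before the transcription start.
Klhl29, GRCm38.p6 chr12:5375683-5375932, minus strand: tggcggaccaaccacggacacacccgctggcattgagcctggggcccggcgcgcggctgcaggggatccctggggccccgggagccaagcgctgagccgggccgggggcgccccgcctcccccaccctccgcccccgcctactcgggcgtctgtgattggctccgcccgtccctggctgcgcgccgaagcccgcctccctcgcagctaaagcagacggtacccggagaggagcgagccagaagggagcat
Fem1b, GRCm38.p6 chr9:62811649-62811898, minus strand: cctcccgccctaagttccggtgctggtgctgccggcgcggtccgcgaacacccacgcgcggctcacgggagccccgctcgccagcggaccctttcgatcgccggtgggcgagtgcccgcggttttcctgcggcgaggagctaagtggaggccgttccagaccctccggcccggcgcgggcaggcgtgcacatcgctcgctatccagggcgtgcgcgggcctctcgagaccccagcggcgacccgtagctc
Zc3h11a, GRCm38.p6 chr1:133661400-133661649, minus strand: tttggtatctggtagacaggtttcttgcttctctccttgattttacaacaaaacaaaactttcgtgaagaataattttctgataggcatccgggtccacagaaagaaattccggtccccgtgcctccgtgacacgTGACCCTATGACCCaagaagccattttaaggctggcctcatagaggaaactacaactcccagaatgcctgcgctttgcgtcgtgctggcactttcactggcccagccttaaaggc
The capitals in the Zc3h11a window mark the repeat, which reads GGGTCATAGGGTCA on the other strand and begins 115 bases before the start. Windows were searched on both strands for 2 copies, in 1 direction, of the half-site AGGTCA or of its variants, namely AGTTCA, the form GGGTCA and the form GGTTCA, with 1, 2 or 5 bases between them. With 1 base between, 0.164% of all 32851 RefSeq promoter windows held a match, with 2 bases 0.174%, and with 5 bases 0.0883%. RefSeq held 591 windows for 398 of the array's genes, and 1 of them held a match, with 2 bases between. The single half-site AGGTCA was in 14% of all windows and 9.64% of the array's windows, and in neither the Klhl29 nor the Fem1b window. Zc3h11a, which encodes an RNA-export zinc-finger protein, had a log2 change of -0.03 ± 0.28. The Klhl29 and Fem1b windows were GC-rich, at 74.8% and 73.6%, against 48.0% for Zc3h11a.

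No probe differed between the 1 h arrays and the controls after adjustment over all 576 probes (limma, 0 of 576, 0%, smallest Benjamini-Hochberg adjusted p = 0.988). At an unadjusted p under 0.05 there were 8 probes (1.39%), 3 higher (0.521%) and 5 lower (0.868%), where 5% of 576 would be 28.8. Log2 changes ran from -0.84 to 0.65, and 3 probes passed 1.5-fold. On the normalised scale 304 probes were higher (52.8%) and 272 lower (47.2%), and on the values as deposited 223 were higher and 353 lower. Of the 576 probes, 142 were at the floor on more than 6 of the 12 arrays. A probe at the floor on all 12 showed no change as deposited, yet counted as higher by 0.003 after normalisation. These counts therefore include probes whose sign carries no direction, and the 2 scales are not set against each other. None of the 576 probes had its 1 h arrays all above the controls, and 2 (0.347%) had them all below.

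The 12 arrays did not separate by group. Rank correlations over the 576 probes had a median of 0.788 among the 10 pairs of 1 h arrays, 0.808 among the 21 pairs of controls and 0.810 among the 35 pairs with 1 array of each. RA 1 h replicates 2 and 3 were most like control replicates 4 and 5, with 0.943 to 0.961 among these 4 arrays. RA 1 h replicate 1 stood apart, with 0.487 to 0.697 against 10 of the other arrays and 0.801 against control replicate 1. The spread of values within an array, as the interquartile range on the deposited log2 scale, was 1.56 ± 0.14 (SD, n = 5) at 1 h and 1.51 ± 0.22 (SD, n = 7) in the controls (exact permutation test, two-sided, 792 splits of the arrays, p = 0.639).

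**Figure D1:**
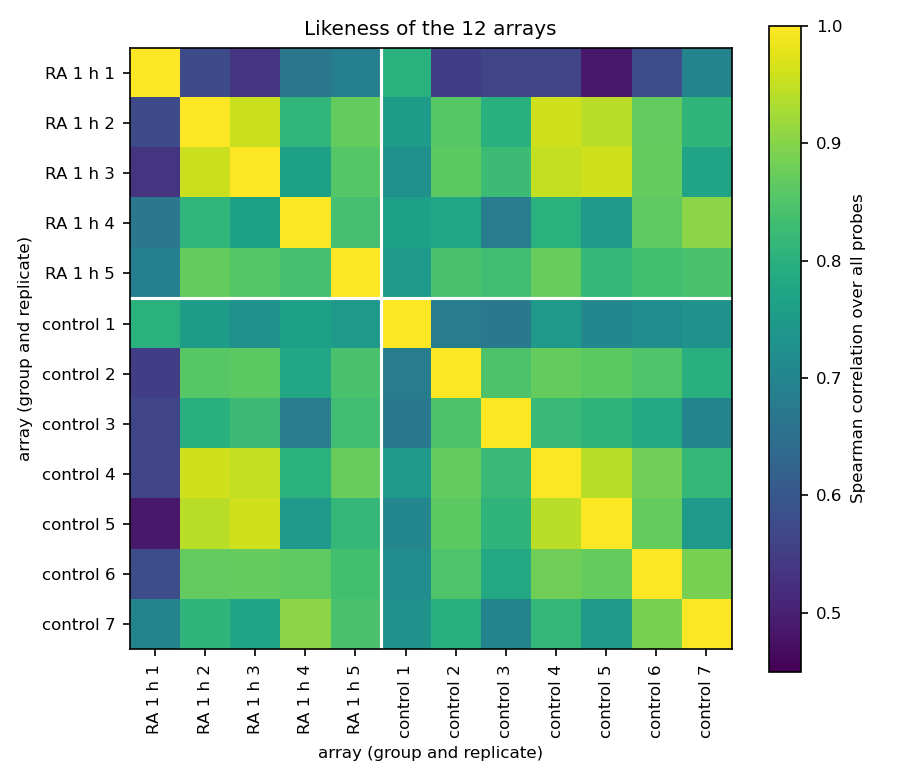
Spearman correlation over 576 probes between each pair of the 12 arrays, RA 1 h replicates first and control replicates after them, with white lines between the groups. RA 1 h replicate 1 is the darkest row, and the brightest pairs join RA 1 h replicates 2 and 3 with control replicates 4 and 5 (0.943 to 0.961).

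Neighbouring spots moved together. Probe numbers laid out in rows of 24 gave a grid in which the log2 changes of spots 1 apart correlated at 0.48 along rows and 0.49 along columns (552 pairs each), and spots 12 apart at -0.09 and 0.05. The grid was inferred from the data, not stated in the labels, and the patches below were outlined after the values were seen. A patch of 16 spots (rows 20 to 23, columns 9 to 12) held 8 of the 10 largest positive changes, with all 16 above 0 and a median of 0.42. Its median deviation from the control mean was 0.83, 0.19, 0.01, 0.83 and 0.44 on RA 1 h replicates 1 to 5, and ran from -0.41 on control replicate 6 to 0.94 on control replicate 1. A patch of 12 spots (rows 18 to 20, columns 20 to 23) held 4 of the 5 lower probes with an unadjusted p under 0.05, with a median of -0.33. There the deviations were -0.32, -0.33, -0.31, -0.29 and -0.46 on the 1 h arrays and from -0.20 to 0.25 on the controls. The position correction subtracted on each array the median deviation of the surrounding probes (within 2 rows and 2 columns) from their means over all arrays. It left neighbour correlations of 0.12 and 0.17, and 0 probes passed. Corrected values are given beside some of the genes below. The part of array position in them was not tested.

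**Figure D2:**
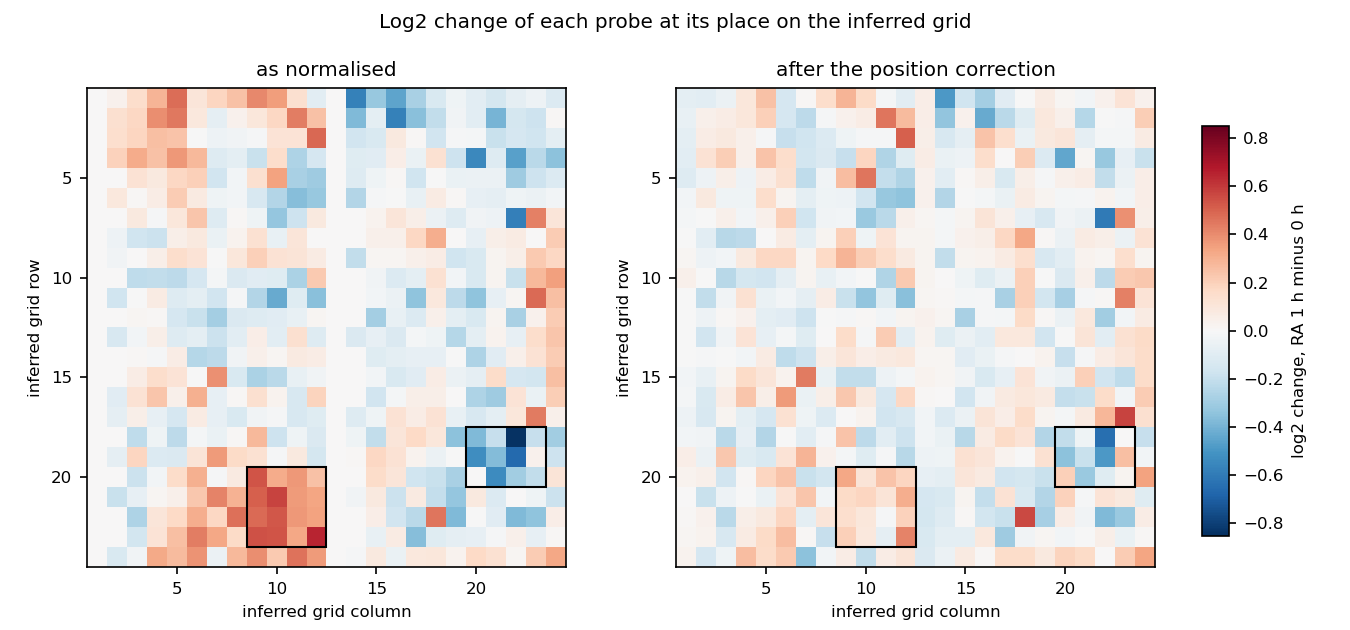
Log2 change (RA 1 h minus 0 h) of the 576 probes at their places on the inferred 24-column grid, as normalised at left and after the position correction at right, on 1 colour scale. The boxes mark the patch of 16 spots whose median is 0.42 before and 0.17 after the correction, and the patch of 12 spots whose median is -0.33 before and -0.14 after.

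Of the 8 probes with an unadjusted p under 0.05 (1.39% of 576), 4 were among the 43 measured ubiquitin genes, a list chosen with earlier results of these data known, and they are given by role and not as an excess. Klhl29 and Ube4b, 2 of the 4, lay in the patch of 12 spots. Klhl29, of the Kelch-like family that serves as substrate adaptors of cullin-3 ligases, was at -0.29, -0.78, -0.38, -0.80 and -0.61 on RA 1 h replicates 1 to 5, and the 7 controls had a lowest value of -0.19, a median of 0.03 and a highest value of 0.38. Every 1 h array lay below every control, and replicates 2 and 4 were at the floor. Its log2 change was -0.66 ± 0.24 (limma unadjusted p = 0.00978, adjusted p = 0.988), between -0.73 and -0.60 with any 1 array left out and -0.49 ± 0.17 after the position correction. On the same control arrays the log2 change of Klhl29 at 3, 6, 12 and 24 h was -0.03, -0.40, 0.05 and -0.05.

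Fem1b, a substrate receptor of cullin-2 ligases, was at 0.70, 1.27, 1.27, 1.07 and 1.14 on RA 1 h replicates 1 to 5, against a lowest value of 1.27, a median of 1.47 and a highest value of 1.82 in the controls. The groups met at 1.27 without crossing. The log2 change was -0.43 ± 0.20 (limma unadjusted p = 0.0411, adjusted p = 0.988) and -0.34 ± 0.17 after the position correction. It was -0.33 without RA 1 h replicate 1, the lowest array, where the unadjusted p was 0.131. At 3, 6, 12 and 24 h its log2 change against the same controls was -0.23, 0.23, 0.05 and 0.28.

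Ube4b, a U-box ligase that lengthens ubiquitin chains, was at 0.97, 0.41, 1.04, 0.25 and 0.51 on RA 1 h replicates 1 to 5, against a lowest value of 0.93, a median of 1.37 and a highest value of 1.97 in the controls. Only control replicate 7 reached into the range of the 1 h arrays. Its log2 change of -0.84 ± 0.41 was the lowest on the array (limma unadjusted p = 0.0478, adjusted p = 0.988). After the position correction it was -0.64 ± 0.33. Ube4b was also below the shared controls at the later times, by log2 changes of -0.76, -0.81, -0.25 and -0.44 at 3, 6, 12 and 24 h.

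Marchf4, a membrane-bound RING ligase, was at -0.30, 1.02, -0.78, -0.81 and -0.36 on RA 1 h replicates 1 to 5, against a lowest value of -0.81, a median of -0.78 and a highest value of -0.28 in the controls. Its log2 change of 0.44 ± 0.19 (limma unadjusted p = 0.0254) rested on replicate 2 and was 0.12 without it. With all arrays and the position correction it was 0.58 ± 0.19. Marchf4 was at the floor on 2 of 5 arrays at 1 h and 4 of 7 controls.

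The other 4 of these 8 probes had other roles, and Bod1l and Khnyn among them also lay in the patch of 12 spots. Bod1l, whose human counterpart protects stalled replication forks, was at -0.58, -0.78, -0.78, -0.53 and -0.81 on RA 1 h replicates 1 to 5, against a lowest value of -0.66, a median of -0.07 and a highest value of 0.13 in the controls. It was at the floor on 3 of the 5 arrays at 1 h, and control replicate 7 lay within the range of the 1 h arrays. The log2 change was -0.53 ± 0.18, the smallest p on the array (limma unadjusted p = 0.00646, adjusted p = 0.988), and -0.32 ± 0.14 after the position correction. With arrays weighted by quality Bod1l was at -0.63 and passed (limma adjusted p = 0.0380). It was the 1 probe to do so, and RA 1 h replicates 2 and 3 had the highest weights, 6.92 and 4.08, against 0.253 to 2.00 for the other 10 arrays.

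Khnyn, a partner of an antiviral zinc-finger protein in human cells, was at the floor on each of the 5 RA 1 h arrays and in 1 control. Its control values had a lowest value of -0.79, a median of -0.53 and a highest value of -0.13, so its log2 change of -0.37 ± 0.16 (limma unadjusted p = 0.0284) rests on values with only an upper limit. After the position correction it was -0.19 ± 0.10. Ppp1r9a (neurabin), which anchors protein phosphatase 1 to actin, was at -0.34, 0.26, -0.01, 0.66 and 0.26 on RA 1 h replicates 1 to 5, against a lowest value of -0.81, a median of -0.28 and a highest value of 0.20 in the controls. The groups overlapped over most of their range, with a log2 change of 0.42 ± 0.21 (limma unadjusted p = 0.0486) that was 0.24 ± 0.20 after the position correction. Pcdh19, a protocadherin of neuronal adhesion, was at the floor on 4 of the 5 RA 1 h arrays and in all 7 controls, and its log2 change of 0.17 ± 0.08 rested on RA 1 h replicate 4, at 0.05. After the position correction it was 0.13 ± 0.08.

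**Figure D3:**
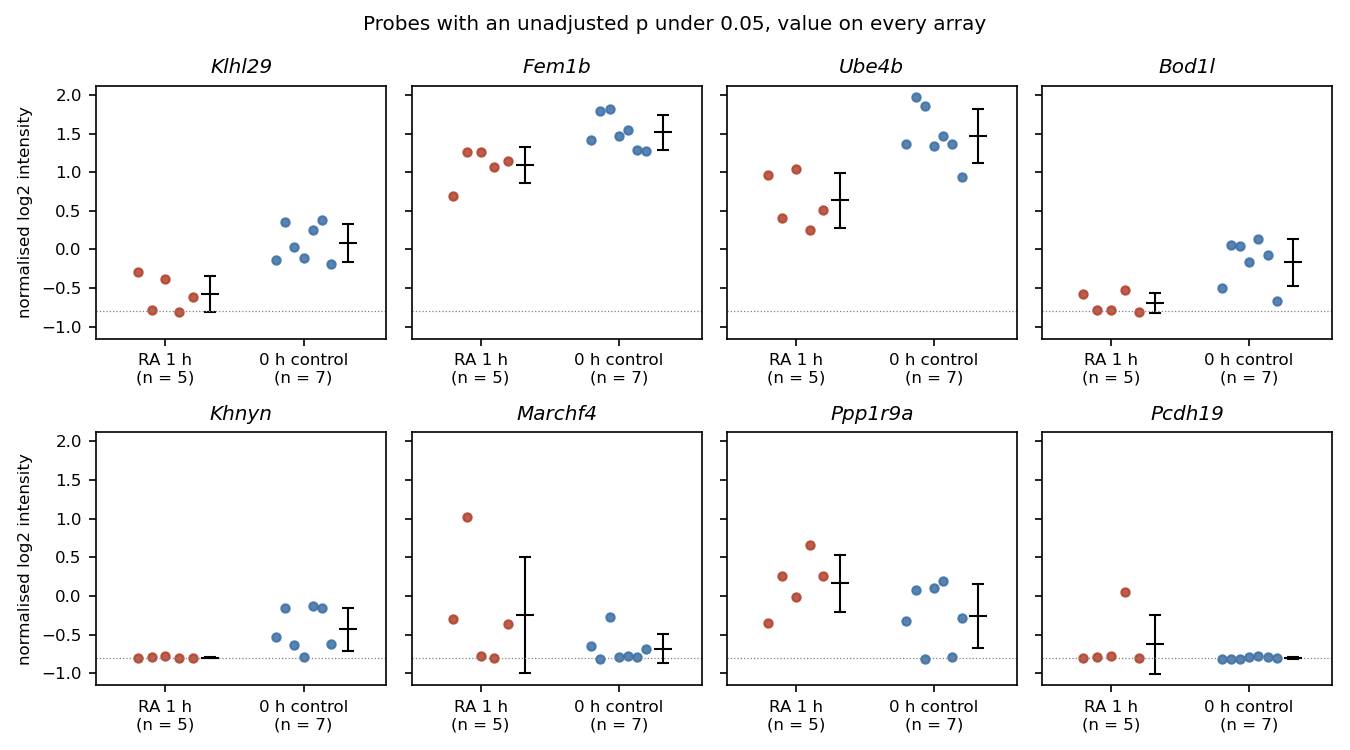
Normalised log2 intensity of the 8 probes with an unadjusted p under 0.05 on every array, RA 1 h left (n = 5) and 0 h control right (n = 7), with mean ± SD beside the points and a dotted line near the floor. Klhl29 and Fem1b do not overlap, Khnyn is at the floor on all 5 arrays at 1 h, and single high arrays carry Marchf4 and Pcdh19.

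The whole list of ubiquitin enzymes had 43 measured members, of which 0 passed, 28 were lower and 15 higher at 1 h (65.1% lower, against 47.2% of all probes and 53.3% of the named ones). Its median log2 change was -0.08, against 0.00 for all probes. Of the 43 members, 2 were at the floor on more than 6 of the 12 arrays, against 142 of all 576 probes and 61 of the 473 named ones. Both backgrounds thus hold a larger share of probes whose sign says little. The list's median was -0.03 without RA 1 h replicate 1 (18 higher, 25 lower) and -0.06 after the position correction (13 higher, 30 lower). By array, the median deviation of the 43 members from the control mean was -0.29, -0.02, -0.03, -0.08 and 0.06 on RA 1 h replicates 1 to 5. The controls ran from -0.11 on replicate 1 to 0.13 on replicate 3, so RA 1 h replicate 1 was the 1 array at 1 h outside their range.

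Among 8 deubiquitinases 6 were lower and 2 higher, none passing. Usp31 was at -0.24 ± 0.19, Usp33 at -0.22 ± 0.27 and Usp8, which acts on endosomal cargo, at -0.19 ± 0.27. Cyld, which removes linear and K63-linked chains, was at -0.11 ± 0.24 and Usp19 at -0.08 ± 0.21. Usp15 and Otud4 were on the other side, at 0.15 ± 0.31 and 0.11 ± 0.19, and Usp15 was at -0.05 after the position correction. Vcpip1 was at -0.02 ± 0.31.

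Of 17 E3 ligases 9 were lower and 8 higher. The next lowest after Ube4b was Trim37, at -0.55 ± 0.44, then the HECT ligase Huwe1, at -0.37 ± 0.41, and Ubr2, which reads destabilising N-terminal residues, at -0.35 ± 0.29. Trim37 and Huwe1 had their lowest value at 1 h on replicate 1 (-0.80 and -0.16), and without that array they were at -0.30 and 0.04. The position correction put them at -0.44 and -0.34. Pja2 was at -0.27 ± 0.25, Dzip3 at -0.24 ± 0.28 and Smurf1, a ligase of the BMP and TGF-beta pathways, at -0.21 ± 0.15. Nedd4 and its relative Nedd4l were at 0.04 ± 0.20 and 0.17 ± 0.35. Zswim8, an adaptor of a cullin ligase that acts in microRNA decay, was at 0.32 ± 0.25, with its 1 h arrays between 1.18 and 1.53 and its controls between 0.25 and 1.70. The remaining ligases lay between -0.03 and 0.22: Herc3, Rnf157, Ube3c, Syvn1, Ubr4 and Arel1. Ube3c, at 0.04 ± 0.17, was at -0.02 on the values as deposited and after the position correction.

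Of 18 ligase adaptors and scaffolds 13 were lower and 5 higher. After Klhl29 and Fem1b the lowest were Dcaf1 at -0.38 ± 0.28, Appbp2 at -0.28 ± 0.31, Fbxo28 at -0.23 ± 0.22 and Klhl13 at -0.22 ± 0.17. Fbxw11, the F-box protein that recruits phosphorylated beta-catenin and I-kappa-B, was at -0.16 ± 0.20. Kbtbd8 was the highest at 0.40 ± 0.24, which was 0.14 without RA 1 h replicate 1 and 0.10 after the position correction. Fbxo21 was at 0.19 ± 0.26 and Asb1 at 0.05 ± 0.14. Of the 43 ubiquitin genes, 2 (Ube4b and Klhl29) lay in the patch of 12 spots. Outside both patches 26 were lower and 15 higher, with a median of -0.07.

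Microtubule and motor genes had 30 measured members, of which 0 passed, 19 were higher and 11 lower at 1 h. Of all probes 304 were higher and 272 lower, and of the named ones 221 were higher and 252 lower. These backgrounds hold more dim probes: 142 of all probes and 61 of the named ones were at the floor on more than 6 of the 12 arrays, against 1 member. The list's median log2 change was 0.07. It was 0.10 without RA 1 h replicate 1 (18 higher, 12 lower), 0.02 without RA 1 h replicate 4 and 0.08 after the position correction (20 higher, 10 lower). By array, the members' median deviation from the control mean was -0.13, 0.12, 0.05, 0.10 and 0.29 on RA 1 h replicates 1 to 5, against -0.20 to 0.10 on the controls.

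The 3 highest members all lay in the patch of 16 spots. Akap9, a scaffold of the centrosome and Golgi that nucleates microtubules, was at 1.47, 0.29, 0.19, 1.00 and 0.60 on RA 1 h replicates 1 to 5, against a lowest value of -0.71, a median of 0.05 and a highest value of 0.96 in the controls. Its log2 change was 0.53 ± 0.32, and 0.09 ± 0.18 after the position correction. Pcnt (pericentrin), a core protein of the centrosome, was at 1.09, 0.59, 0.40, 1.39 and 0.81 on the 1 h arrays, against a lowest value of -0.42, a median of 0.33 and a highest value of 1.26 in the controls. Its log2 change was 0.53 ± 0.30, and 0.09 ± 0.19 after the correction. Nav3, a neuron navigator that follows growing microtubule ends, was at 0.48 ± 0.31, and at 0.14 after it. In all 3 genes the groups overlapped. Outside both patches 16 members were higher and 11 lower, with a median of 0.05.

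Among the kinesins, Kif1b, which carries mitochondria and synaptic vesicle precursors, was at 0.24 ± 0.22, Kif5c, a conventional kinesin heavy chain, at 0.17 ± 0.34 and Kif17 at 0.12 ± 0.07. Kif17 was at the floor on 3 of 5 arrays at 1 h and 5 of 7 controls. Kif3b, a kinesin-2 subunit, was at -0.08 ± 0.24. The dynein heavy chain Dync1h1 was at 0.07 ± 0.26 and its adaptor Bicd2 at -0.14 ± 0.33. The mitochondrial adaptors Trak1 and Trak2 were at -0.04 ± 0.23 and 0.37 ± 0.33.

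Of 16 lattice and tip proteins 10 were higher and 6 lower, and without RA 1 h replicate 1 the counts were 8 and 8. The spectraplakin Macf1, which links microtubules to actin, was at 0.32 ± 0.33, and the kinases Mast2 and Mark3 were at 0.24 ± 0.24 and 0.22 ± 0.18. The tip proteins Clasp1 and Clasp2 were at 0.09 ± 0.31 and -0.11 ± 0.15, the polymerase Ckap5 at 0.01 ± 0.27 and the minus-end protein Camsap2 at -0.09 ± 0.29. Map7d1 was at -0.30 ± 0.47, Nav1 at -0.18 ± 0.25 and the tubulin folding cofactor Tbcd at -0.17 ± 0.23. Dclk1, a doublecortin-like kinase, was at -0.05 ± 0.22. The 1 tubulin on the array, Tubb5, was at 4.30 or 4.71 on each of the 12 arrays, since quantile normalisation gives bright probes few distinct values, and its log2 change was 0.05 ± 0.39. In the centrosome and cilium, Ift172 was at 0.10 ± 0.20, Cep170b at -0.01 ± 0.27 and Cep192 at -0.11 ± 0.18.

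**Figure D4:**
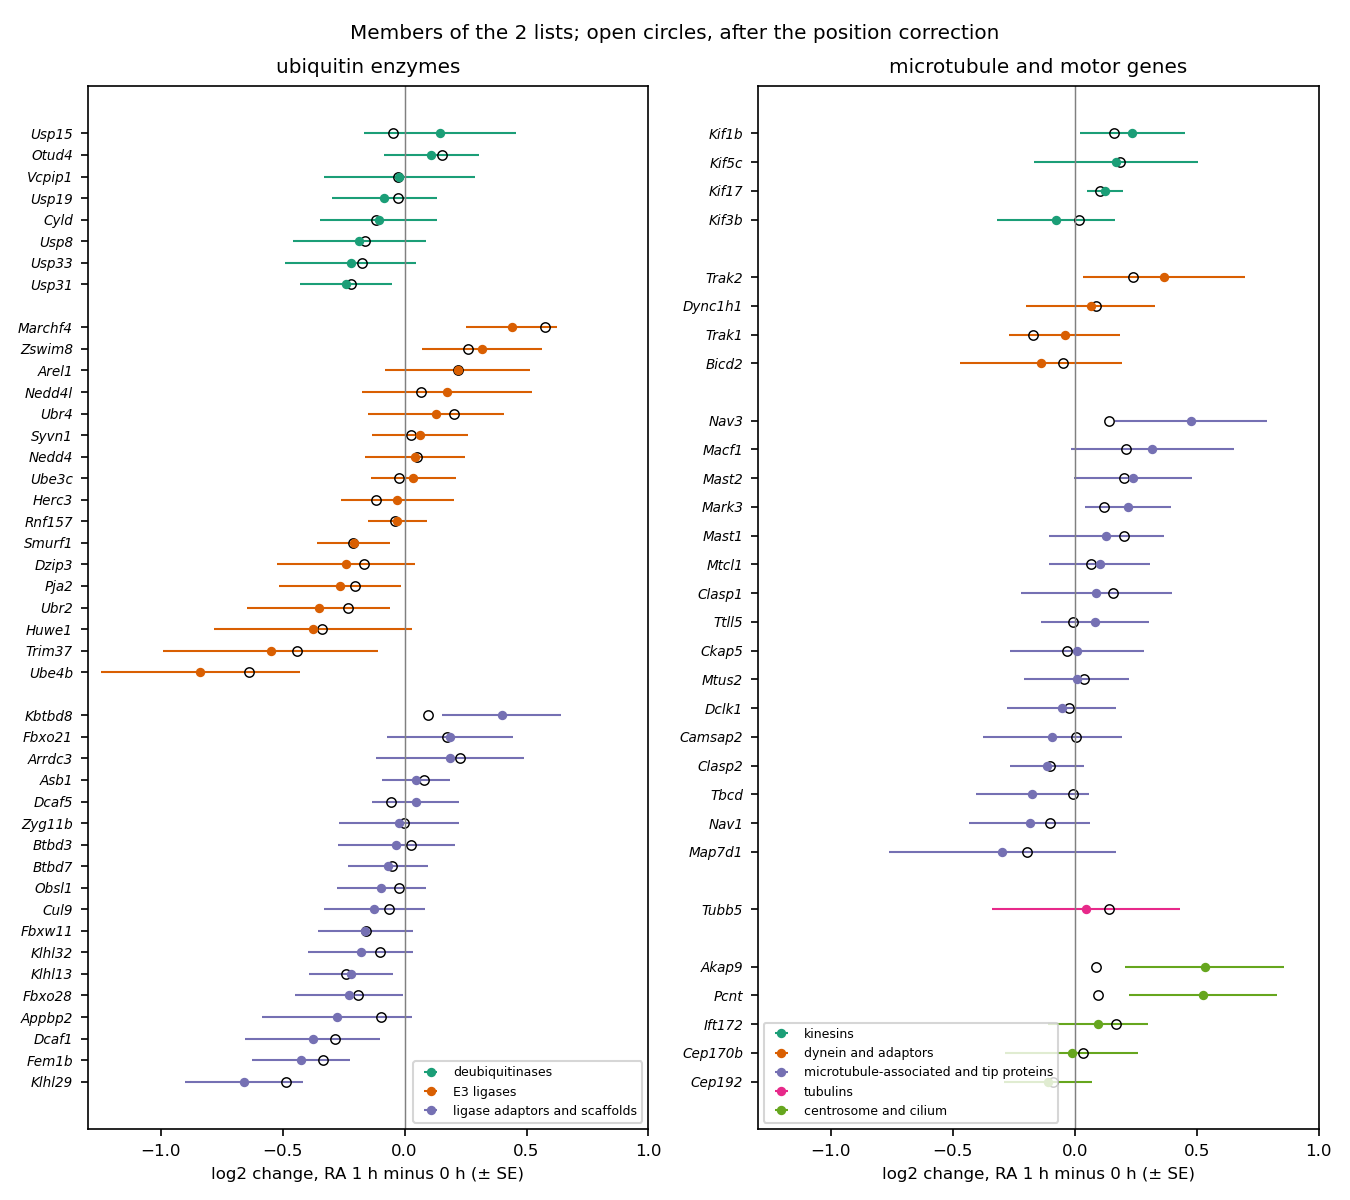
Log2 change (RA 1 h minus 0 h, ± SE) of each ubiquitin enzyme (left) and each microtubule or motor gene (right), coloured by role, with open circles for the value after the position correction. Ube4b and Klhl29 lie lowest among the ubiquitin enzymes, and the filled and open circles of Akap9, Pcnt and Nav3 are far apart.

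Genes tied to retinoic acid signalling numbered 5 on the array, of which 0 passed, 3 were higher and 2 lower, with a median log2 change of 0.20. The median was 0.34 without RA 1 h replicate 1, 0.08 without RA 1 h replicate 5 and 0.09 over the 4 members outside both patches. Rere, an atrophin-family coregulator that promotes retinoic acid signalling in mouse embryos, was at 0.69, 0.50, 0.67, 1.16 and 1.19 on RA 1 h replicates 1 to 5, against a lowest value of -0.07, a median of 0.30 and a highest value of 0.99 in the controls. All 5 arrays at 1 h lay above the control mean, and 2 controls, replicates 6 and 7, reached into their range. The log2 change of Rere was 0.48 ± 0.25 (limma unadjusted p = 0.0619, adjusted p = 0.988), and 0.43 ± 0.22 after the position correction. With arrays weighted by quality Rere was at 0.15 (limma adjusted p = 0.905). Against the same controls it was 0.01, 0.19, 0.18 and 0.30 at 3, 6, 12 and 24 h.

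Asxl1, a Polycomb-associated protein, was at 0.37, 0.85, 0.49, 1.20 and 0.30 on RA 1 h replicates 1 to 5, against a lowest value of -0.53, a median of -0.13 and a highest value of 0.81 in the controls. Its log2 change was 0.57 ± 0.32. It lay in the patch of 16 spots, and after the position correction it was 0.18 ± 0.25. Zfp423, a zinc-finger protein that binds the retinoic acid receptors, stood at 0.20 ± 0.19, and at 0.29 ± 0.13 after the correction. Acin1 was at -0.02 ± 0.22 and the Mediator subunit Med13l at -0.10 ± 0.26.

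Early-response and serum-response genes numbered 3 on the array. Arrdc3, an arrestin-like adaptor of Nedd4 ligases, was at -0.69, 0.61, 0.72, 1.23 and 0.84 on RA 1 h replicates 1 to 5, against a lowest value of -0.56, a median of 0.49 and a highest value of 0.83 in the controls. Both lowest values were on replicate 1 of their group. Its log2 change was 0.19 ± 0.30, 0.50 without RA 1 h replicate 1 and 0.35 without replicate 1 of both groups. The position-corrected value was 0.23 ± 0.25. The clock gene Per2 was at -0.03 ± 0.21 and Actb, a serum-responsive actin gene, at 0.08 ± 0.47. Actb depended on the scaling, at 0.54 on the values as deposited. On the normalised scale 1 of its 5 arrays at 1 h lay above the control mean. None of the 3 passed. Of 4 heat shock and stress genes, all J-domain or HSP70-family members, 2 were higher and 2 lower, and none passed.

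The remaining lists also had 0 members past the threshold. Small GTPase regulators were higher in 24 of 34 and lower in 10, with a median of 0.07, and without RA 1 h replicate 1 in 20 and 14. After the position correction the counts were 22 and 12, with a median of 0.03. Dock9, an exchange factor for Cdc42, had the highest log2 change on the array at 0.65 ± 0.39, carried by RA 1 h replicates 1 and 4 at 1.54 and 1.30, while replicates 2 and 3 were at -0.30 and -0.49. Its controls ran from -0.78 to 1.07. Dock9 was at 0.42 ± 0.32 after the position correction and at 0.01 with arrays weighted by quality. The Rab exchange factor Dennd4b was at 0.54 ± 0.31 (0.20 after the position correction), and the Rap exchange factor Rapgef2 at 0.41 ± 0.28 (0.29 after it). Both Dock9 and Dennd4b lay in the patch of 16 spots.

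RNA processing and ribosome biogenesis genes were lower in 18 of 23 and higher in 5, with a median of -0.06. Without RA 1 h replicate 1 the counts were 15 and 8, and after the position correction 14 and 9. Without RA 1 h replicate 3 the median was -0.25. The translational repressor Pum2 was at -0.57 ± 0.32, with -0.62 on RA 1 h replicate 1 and 0.38 to 1.63 on replicates 2 to 5, and was at -0.22 without replicate 1 and -0.43 after the position correction. The splicing factor Rbm10 was at -0.53 ± 0.29, the spliceosomal helicase Aqr at -0.46 ± 0.30 and the ribosome biogenesis gene Urb2 at -0.34 ± 0.20. Rbm10 lay in the patch of 12 spots. After the position correction Rbm10 was at -0.35, Aqr at -0.32 and Urb2 at -0.28. With arrays weighted by quality Rbm10 was at -0.38 and Aqr at -0.04. In Urb2 all 5 arrays at 1 h lay below the control mean.

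Autophagy and endolysosomal genes were lower in 19 of 29 and higher in 10, with a median of -0.04. After the position correction 17 were lower and 12 higher, with a median of -0.01, and with 1 array left out the median ran from -0.08 to -0.01. Cltc, the clathrin heavy chain, was at 0.03, 2.45, 1.82, 2.04 and 1.46 on RA 1 h replicates 1 to 5, against 2.04 to 2.31 in the controls. Its log2 change was -0.58 ± 0.38, -0.20 without replicate 1 and -0.60 after the position correction. Kinases, phosphatases and growth signalling genes were lower in 12 of 19 and higher in 7 (11 and 8 after the position correction), with Phlpp1 at -0.32 ± 0.24 and Hipk1 at 0.31 ± 0.22.

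Chromatin genes were higher in 11 of 24 and lower in 13, and without RA 1 h replicate 1 in 17 and 7. The remodeller Chd9 was at 0.53 ± 0.27 (0.33 after the position correction) and the histone methyltransferase Kmt2b at -0.33 ± 0.19. Transcription factors were higher in 19 of 35 and lower in 16, without RA 1 h replicate 1 in 16 and 19, and on the values as deposited in 17 and 18, with the Groucho-family co-repressor Tle3 at 0.39 ± 0.29. The cell cycle list had 4 members, 2 higher and 2 lower. Among them the Mediator kinase Cdk19 was at 0.51 ± 0.26, and at 0.16 after the position correction. Both Chd9 and Cdk19 lay in the patch of 16 spots.

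Neuronal genes gave no call. Of 24 axon guidance and adhesion genes 12 were higher and 12 lower, with Dscaml1, a cell adhesion protein, at 0.22 ± 0.15 and Astn1, which acts in glia-guided neuronal migration, at -0.30 ± 0.22. Astn1 lay in the patch of 12 spots. After the position correction Dscaml1 was at 0.14 and Astn1 at -0.10. Synaptic genes were higher in 17 of 30 and lower in 13, with the vesicle-priming gene Unc13b at 0.43 ± 0.30 and the active zone gene Pclo at 0.43 ± 0.32. Unc13b was at the floor on 2 of 5 arrays at 1 h and 2 of 7 controls, and Pclo on 3 of 5 and 4 of 7. In each gene only 2 of the 5 arrays at 1 h lay above the control mean. With arrays weighted by quality Unc13b was at 0.54 and Pclo at 0.02. Without RA 1 h replicate 1 the synaptic counts were 12 higher and 18 lower, and those of axon guidance and adhesion 8 and 16. After the position correction they were 14 and 16 for synaptic genes and 13 and 11 for axon guidance and adhesion. At the floor on more than 6 of the 12 arrays were 12 of the synaptic genes and 9 of the axon guidance and adhesion genes. Of 25 actin genes 13 were higher and 12 lower, and without RA 1 h replicate 1 the counts were 12 and 13, with Plekhh1 at 0.45 ± 0.30 and Ablim1 at -0.27 ± 0.21. The 1 neuronal marker measured, the neurofilament gene Nefh, was at 1.26 ± 0.29 (SD, n = 5) at 1 h and 1.29 ± 0.28 (SD, n = 7) in the controls. The 2 markers of other cells, Pxdn and Phldb1, were at -0.11 ± 0.25 and 0.07 ± 0.19.

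**Figure D5:**
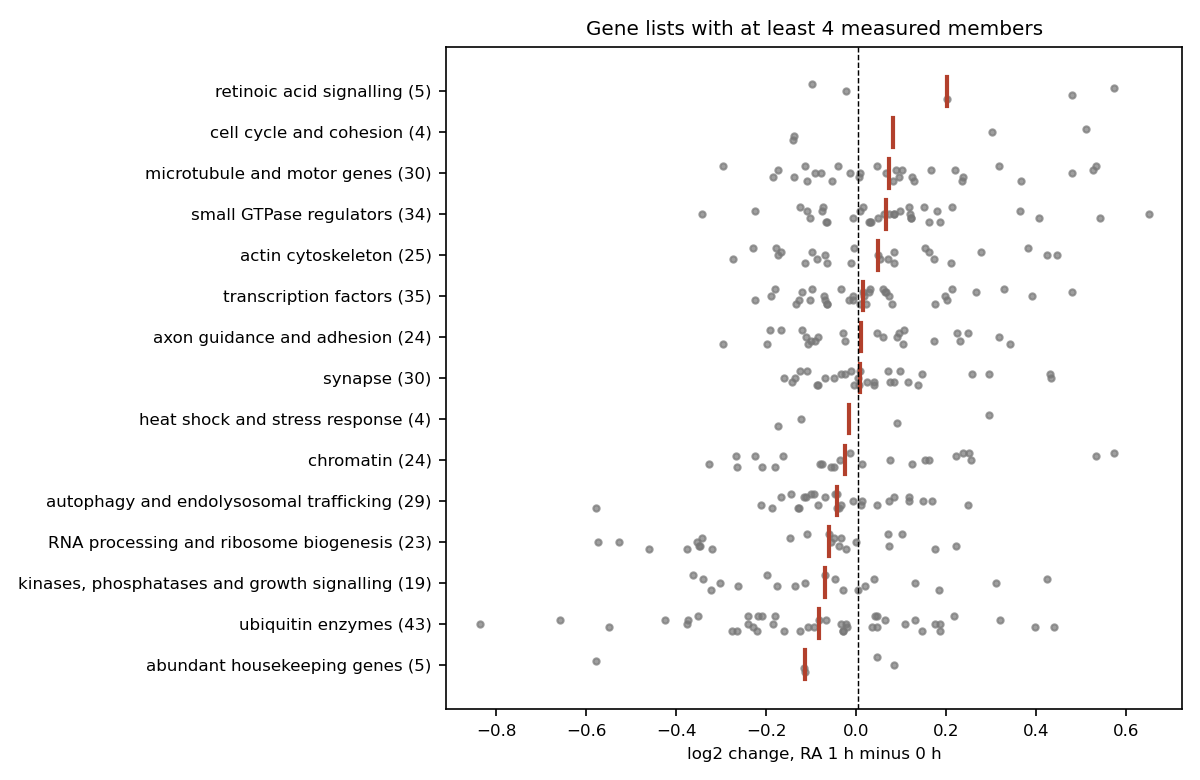
Log2 change (RA 1 h minus 0 h) of each measured member of the gene lists with at least 4 members, number measured in parentheses, with a red bar at each list's median and a dashed line at the median of all 576 probes (0.00). List medians lie between -0.11 and 0.20, and every list spans the dashed line.

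Genes named for their values at later times in this course did not pass at 1 h. The log2 change at 1 h was 0.03 ± 0.17 for Plekhg1, 0.07 ± 0.22 for the WAVE complex subunit Cyfip2, -0.03 ± 0.22 for Atmin and -0.20 ± 0.18 for the teneurin Tenm4, which was at the floor on all 5 arrays at 1 h and 4 of 7 controls. The later values by which they were chosen rest on the same control arrays.

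The comparison of 1 h with 3 h of retinoic acid shares no control array, and in it both groups had the change of medium. No probe differed (limma, 0 of 576, 0%, smallest adjusted p = 0.843), and 21 (3.65%) had an unadjusted p under 0.05, 8 higher and 13 lower at 1 h. With array quality weights 21 probes passed. Rap1gap2, a GTPase-activating protein for Rap1, was at -0.80, -0.09, 0.04, -0.80 and -0.81 on RA 1 h replicates 1 to 5, against 0.43, 1.05, 1.16, 0.70 and -0.35 on RA 3 h replicates 1 to 5. Only 3 h replicate 5 reached into the range of the 1 h arrays, and 3 of the 5 arrays at 1 h were at the floor. The log2 difference, RA 1 h minus RA 3 h, was -1.09 ± 0.34, and -0.64 after the position correction. Its grid neighbours, unnamed probe 81 and the calcium channel gene Cacna1h, were at -1.01 ± 0.36 and -0.59 ± 0.18, Cacna1h with 4 of 5 arrays at 1 h at the floor, and spots 1 apart correlated at 0.68 along rows in this difference.

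Mark3, a kinase of microtubule-associated proteins, was at 0.81, 1.44, 1.44, 1.21 and 1.37 on RA 1 h replicates 1 to 5, against 0.96, 0.46, 0.43, 0.53 and 1.12 on RA 3 h replicates 1 to 5. Replicate 1 at 1 h was the 1 array there to overlap the 3 h arrays. The log2 difference of Mark3 was 0.55 ± 0.19 (limma unadjusted p = 0.00666, adjusted p = 1.00), and 0.39 after the position correction. Elmo2, a partner of Dock exchange factors, was at 0.49 ± 0.18, and at 0.27 after it. Klhl29 was at -0.24, 0.33, 0.53, 0.19 and -0.52 on RA 3 h replicates 1 to 5, so that 4 of these arrays lay above all 5 at 1 h.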

How the data were processed

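Poly(A)+ RNA of 38 samples was labelled with Cy5 and hybridised singly to arrays of 576 oligonucleotide probes, per the labels' protocols. The values used are linear Cy5 intensities as deposited by the authors. The sources used here do not give how background was corrected, arrays scaled or the lowest value of 0.540 set. Between 54.5% and 55.0% of probes lay below 1 on each array.

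Deposited values were taken to log2, quantile normalised over all 38 arrays and fitted with limma (version 3.58.1, R 4.3.3) by group alone (6 groups, 32 residual degrees of freedom). Moderated two-sided tests were adjusted by Benjamini-Hochberg over all 576 probes, with a threshold of 0.05. The fit was tested on simulated data. Of the 576 probes, the platform annotation names 473, of which 472 were found in RefSeq (GRCm38.p6), and 103 are unnamed here. Promoter windows were matched by gene ID.

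The comparison, the 18 gene lists and the named genes were chosen with earlier results of these data known, so lists are described by counts and medians and no list was tested. Named were the 10 largest changes each way among genes at the floor on at most 6 of the 12 arrays, probes with an unadjusted p under 0.05, all members of the ubiquitin, microtubule, retinoic acid and immediate early lists, the 4 members of smallest p of each other list, the 5 probes of smallest p at 1 h against 3 h, 6 genes of later times, and probes whose groups did not overlap. Beyond these, Zc3h11a was named after its promoter window was searched. The position correction and the joint removal of both replicates 1 were chosen after seeing the data.

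The labels give no pairing of the 1 h and 3 h arrays beyond a replicate number. Deviations of same-numbered arrays from their group means correlated at 0.82, 0.40, 0.43, 0.22 and 0.20 over probes. Of the 5 arrays at 1 h, 2 correlated best with the 3 h array of their own number.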

Additional observations from a re-analysis of the deposited data

Results flagged for a closer look

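Among 54 groups of values of 25 genes examined, 3 held an array far from the rest of its group. The nominal rate of the rule is about 1 in 20 groups. That rate does not hold for values tied at the floor, and both flagged genes, Marchf4 and Pcdh19, had arrays there. Marchf4 was at 1.02 on RA 1 h replicate 2, with the other 1 h arrays between -0.81 and -0.30. It was at -0.28 on control replicate 3, with the other controls between -0.81 and -0.65. Pcdh19 was at 0.049 on RA 1 h replicate 4, with the other 1 h arrays between -0.81 and -0.78, at the floor.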

How the results depend on the processing

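For 1 h against 0 h, 0 probes passed in 22 of 23 settings and 1 (Bod1l) with array quality weights. For 1 h against 3 h the count was 0, and 21 with array quality weights. The cause was not tested. Leaving out 1 array at a time gave 0 to 0 probes in both comparisons, with 4 to 18 and 9 to 43 at an unadjusted p under 0.05. The difference in array range, RA 1 h minus 0 h, was 0.05 by interquartile range (0.00 to 0.11 with 1 array left out) and -0.031 from the 10th to the 90th percentile (exact permutation p = 0.847). The ubiquitin median ran from -0.10 to -0.03 and the microtubule median from 0.02 to 0.10 with 1 array left out. Both kept their sign in every other setting run. Of 138 named results, 70 took the other sign in some setting, among them 12 of the 64 larger than 1 SE.

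With the replicate block 0 probes passed at 1 h against 0 h (47 unadjusted, limma smallest adjusted p = 0.0713) and 0 at 1 h against 3 h (47 unadjusted, smallest adjusted p = 0.192). These fits left out control replicates 6 and 7. They normalised only the arrays of the 2 groups compared and took the spread from them, not from all 38. They therefore differ from the main fit by more than the block. The number of arrays and the floor limit what could be seen: 99 of the 576 probes were at the floor on more than 50% of the 38 arrays. The 1 h and 0 h arrays share a replicate number, and the labels give no other pairing. Same-numbered deviations correlated at 0.59, 0.07, 0.19, -0.25 and 0.01. Of the 5 arrays at 1 h, 1 (replicate 1) correlated best with the control of its own number.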
